A study of Homo sapiens with 20 samples.

Results

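Gene expression after 24 h of cisplatin was compared with untreated control in MDA-MB-231 cells, an established line of human triple-negative breast cancer, on 6 of the 20 arrays of the study (3 arrays of Cis 24 h and 3 of Control). The members are the 18417 genes left when each row of the expression table with 1 gene symbol was kept, and each gene was represented by its row with the highest mean over the 20 arrays. The study combined cisplatin with TM (ammonium tetrathiomolybdate, a copper chelator), and the other arrays hold TM alone for 12 h (TM 12 h, 2 arrays) or 24 h (TM 24 h, 3), both drugs (Cis/TM 12 h and, with 3 arrays as well, Cis/TM 24 h) and 12 h of cisplatin (Cis 12 h, 3). All groups share the cell line and the array type, and no group carries a genetic change. The labels and the design text call the control untreated and give it no time, whereas the study's methods name a vehicle, so age in culture and treatment cannot be told apart in a comparison with Control. Treatments were made in triplicate, in plates of 6 wells, and no source says whether the wells were separate cultures, so the p-values measure the spread between these arrays, which may be technical. The array numbers in the labels run in group order, from 9 to 11 for Cis 24 h and from 18 to 20 for Control, so array order and treatment cannot be told apart either.

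Cisplatin is a platinum compound that forms crosslinks between the bases of DNA, mostly between neighbouring purines of one strand. A crosslink on the transcribed strand stops RNA polymerase II, and the chance that a polymerase meets one grows with the distance it has to travel. Stopped replication forks and polymerases call on crosslink repair, nucleotide excision repair and translesion synthesis, and they activate the checkpoint kinases and the p53 pathway. MDA-MB-231 cells carry a mutant p53 protein, and the array does not read that protein's activity. Copper transporters, among them ATP7A and ATP7B, also carry platinum across membranes, which is the link between the copper chelator and the platinum drug in the study.

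Values are log2 expression after RMA (robust multi-array average), so a difference of 1 is a change of 2-fold. The array medians were 5.71 to 5.77 in Control and 5.82 to 5.86 in Cis 24 h, and the SD over genes was 2.01 to 2.03 and 2.12 to 2.18. Within the groups, the lowest correlation of an array with another of its group was 0.983 to 0.984 in Control and 0.995 to 0.996 in Cis 24 h (across genes, which are not independent replicates). Differences moved with the level of a gene. When the genes were divided by mean level into 4 classes of equal size, 6 genes of the lowest class were called higher and 257 lower, and 1065 of the third class were higher and 257 lower. The part of this trend in the results was not tested beyond the scalings given beside them. Of 9 genes that mark the MDA-MB-231 line, 2 rose and 1 fell. LGALS1, which encodes galectin-1, rose by 0.83, the keratin KRT18 rose by 0.69 and EGFR fell by 0.69. CD44 and VIM, which define the line's mesenchymal state, had log2 differences of 0.07 and −0.12 that did not pass the test. Of 9 luminal epithelial markers 2 were called higher, KRT19 among them, and none lower. Among 10 endothelial, fibroblast and red cell markers none was called, and among 7 immune cell markers CD68, which is also a general lysosomal protein, was called higher by 0.87.

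A gene was called where limma, fitted across all 20 arrays, gave a Benjamini-Hochberg adjusted p under 0.05 together with a change of over 1.5-fold. By this rule 2115 genes (11.5%) rose and 903 genes (4.9%) fell, 16.4% in either direction. All treated arrays lay above all control arrays in 24.9% of the genes, and below them in 20.8%. Over all genes the log2 fold change had a median of −0.03. Falls were fewer than rises but outnumbered them among the largest changes. Over 2-fold, 524 genes rose and 236 fell, over 4-fold 11 rose and 37 fell, and over 6-fold 1 rose and 9 fell. The balance of the directions changed with the scaling. Centring the arrays on their medians, which moved that median to −0.12, gave 1607 genes higher and 1359 lower. Quantile normalization gave 1306 and 1025, and 1226 and 973 were called once the trend with level was removed. The named genes called in this comparison kept their direction under each of these scalings.

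**Figure D1:**
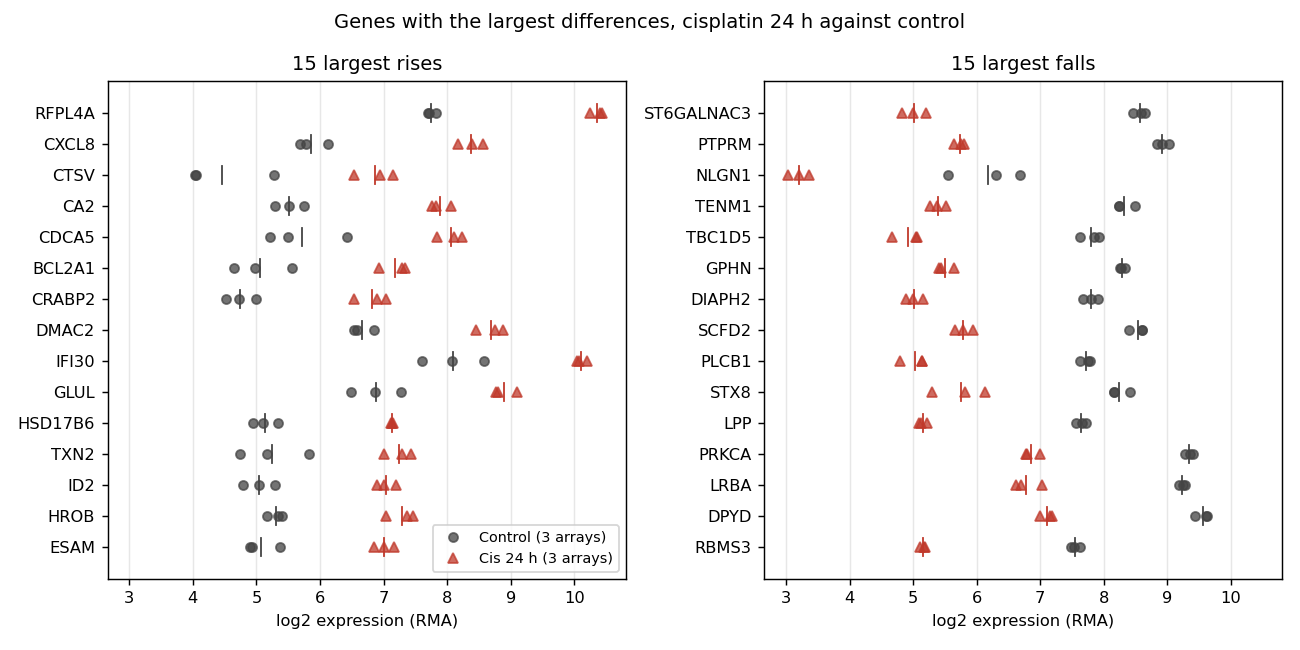
Log2 expression (RMA) on each of the 3 control arrays (grey circles) and 3 Cis 24 h arrays (red triangles) for the 15 largest rises (left) and the 15 largest falls (right), with the mean of each group as a vertical line. The groups do not overlap for any of these genes, which is part of the rule by which they were chosen, and NLGN1, CTSV, CDCA5 and TXN2 have the widest spread among the control arrays.

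The largest rises held secreted and inflammatory factors, enzymes and cell cycle genes. RFPL4A, a gene with near-identical copies that the probes cannot tell apart, had log2 values of 7.82, 7.71 and 7.70 in Control and 10.40, 10.44 and 10.25 in Cis 24 h. CXCL8, which encodes interleukin-8, read 5.69, 6.12 and 5.77 in Control and 8.57, 8.39 and 8.16 in Cis 24 h, a log2 fold change of 2.51 ± 0.15 (SE, adjusted p = 6.21e-10). For both genes the distance between the groups was several times the spread within them. CTSV, a lysosomal cysteine protease, read 4.05, 5.28 and 4.03 in Control and 7.15, 6.94 and 6.53 in Cis 24 h, so that control array B lay above the other control arrays and still below all treated arrays. CA2, carbonic anhydrase 2, rose by 2.37 ± 0.14. BCL2A1, an antiapoptotic member of the BCL2 family, rose by 2.13 ± 0.20, from 4.97, 5.56 and 4.64 to 7.29, 6.93 and 7.34.

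CDCA5 (sororin, which holds sister chromatids together) rose by 2.35 ± 0.22 and HROB, a factor that loads a helicase during homologous recombination, by 1.98 ± 0.14. CRABP2, a carrier of retinoic acid, rose by 2.08, GLUL, glutamine synthetase, by 2.01, and IFI30, a lysosomal thiol reductase induced by interferon, by 2.02. HSD17B6, a steroid dehydrogenase, read 7.14, 7.12 and 7.15 in Cis 24 h against 5.33, 4.94 and 5.11 in Control, the closest agreement of treated arrays among these genes. TXN2, the mitochondrial thioredoxin (2.0), ID2, which binds and blocks basic helix-loop-helix factors (1.99), DMAC2, an assembly factor of the respiratory chain (2.04), and ESAM, an adhesion molecule of endothelium and platelets (1.94), completed the 15. All 15 genes spanned less than 25 kb of the genome, from 2.4 kb in ID2 to 24.5 kb in HSD17B6.

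The largest falls were of another kind. ST6GALNAC3, a sialyltransferase, read 8.46, 8.65 and 8.58 in Control and 4.83, 5.0 and 5.20 in Cis 24 h. PTPRM, a receptor tyrosine phosphatase, went from 8.84, 9.02 and 8.91 to 5.76, 5.64 and 5.80. NLGN1, a synaptic adhesion molecule, went from 5.54, 6.68 and 6.30 to 3.03, 3.37 and 3.21, with more spread among the controls than among the treated arrays. These were genes that spanned 562.6 kb, 839.5 kb and 898.4 kb. TENM1, a teneurin (−2.94 ± 0.16), TBC1D5, a regulator of vesicle traffic (−2.87 ± 0.16), and GPHN, the scaffold gephyrin (−2.79 ± 0.13), fell. DIAPH2, a formin, read 7.80, 7.67 and 7.92 in Control and 4.88, 4.99 and 5.16 in Cis 24 h. SCFD2, a factor of vesicle fusion (−2.74), and PLCB1, a phospholipase C (−2.69), fell. STX8, a syntaxin of endosomes, fell by 2.5 ± 0.21, with the widest spread of the treated arrays (5.82, 5.30 and 6.12).

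PRKCA, protein kinase C alpha, read 9.40, 9.36 and 9.28 in Control and 6.99, 6.78 and 6.79 in Cis 24 h, and LPP, a protein of focal adhesions, read 7.73, 7.56 and 7.65 and then 5.10, 5.22 and 5.13. Both differences had a standard error of 0.10 and an adjusted p of 2.97e-12. LRBA (−2.45), which regulates receptor traffic, DPYD (−2.45), the enzyme that begins the breakdown of pyrimidines, and RBMS3 (−2.39), an RNA-binding protein, completed the 15. The shortest of the 15 was STX8, at 325.4 kb, and the longest GPHN, at 1227.2 kb. PRKCA, LRBA and DPYD read above 9 on all control arrays, so these falls were not confined to genes near the lower end of the scale.

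The distance from the start to the end of a gene was therefore examined across all genes (gene spans from RefSeq, GRCh38.p14, for 16899 protein-coding genes). The median span was 27.3 kb over all of these genes, 16.2 kb over the 2038 called higher and 210.0 kb over the 824 called lower. The share of genes called lower was 1.31% among genes of 10 to 20 kb, 1.29% at 20 to 50 kb, 2.52% at 50 to 100 kb, 8.2% at 100 to 200 kb, 32.2% at 200 to 500 kb and 38.6% above 500 kb. The share called higher ran the other way. It was 19.6% at 5 to 10 kb, 18.8% at 10 to 20 kb, 14.5% at 20 to 50 kb, 7.28% at 50 to 100 kb, 2.02% at 100 to 200 kb and 0.896% at 200 to 500 kb, with none of 290 genes above 500 kb. Genes under 5 kb departed from this order, with 12.3% higher and 2.61% lower. Median log2 fold changes were 0.10 at 10 to 20 kb, −0.02 at 50 to 100 kb, −0.17 at 100 to 200 kb and −0.40 above 500 kb.

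**Figure D2:**
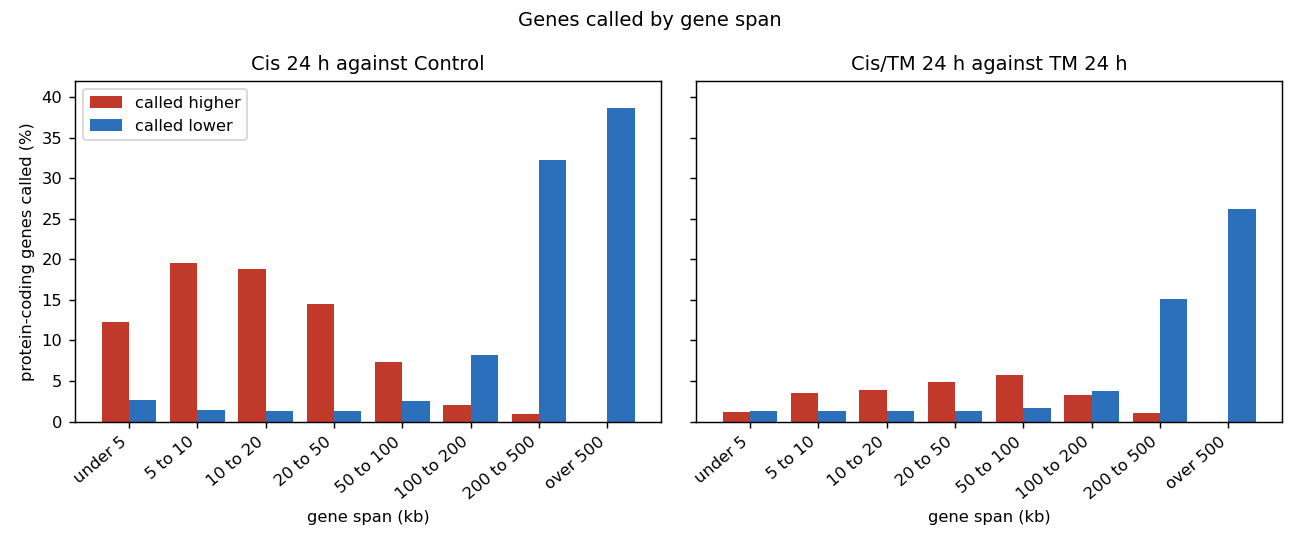
Percent of protein-coding genes called higher (red) and lower (blue) in 8 classes of gene span in kb, for Cis 24 h against Control (left) and, on other arrays, Cis/TM 24 h against TM 24 h (right). The share called lower is 1.29% at 20 to 50 kb and 38.6% above 500 kb on the left, and on the right the shares of lower genes above 200 kb are also the tallest bars.

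Of the 1295 genes over 200 kb, 436 (33.7%) were called lower and 9 higher, and 1169 had a log2 fold change below 0. Over all 18417 genes, 9756 had one below 0. In 784 of the genes over 200 kb all treated arrays lay below all control arrays, and in 28 all lay above. The shares over all genes were 20.8% below and 24.9% above. Of the 7051 genes under 20 kb, 1197 (17%) were called higher and 123 (1.74%) lower. The 30 largest falls all spanned over 200 kb (median 574.0 kb), as did 94 of the 100 largest, whereas none of the 100 largest rises spanned over 100 kb (median 9.4 kb). Because differences also moved with level, the protein-coding genes were divided by level as well, into 4 classes made from these genes alone. Among genes over 200 kb, 12.2% were called lower in the lowest of 4 classes of level, 34.4% in the second, 55.4% in the third and 53.3% in the highest, and among genes of 20 to 200 kb in the same classes 4.32%, 2.15%, 3.34% and 2.67% were. Long genes thus were called lower more often in every class of level. Genes over 200 kb called lower numbered 518 with arrays centred on their medians, 467 after quantile normalization, 454 with the trend with level removed, and 422 to 453 when any 1 of the 6 arrays was left out.

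The 9 long genes that were called higher are named here although they were chosen after their values were seen. They were FILIP1L (0.85), RASEF (0.81), PLCG2 (0.81), PDE4DIP (0.75), NEMP2 (0.74), RNF220 (0.67), FRMD4B (0.64), SLC36A1 (0.62) and MITF (0.61), with spans from 211.5 kb in SLC36A1 to 373.8 kb in FRMD4B. PLCG2 encodes a phospholipase C and MITF a transcription factor with several promoters. Their adjusted p ran from 1.84e-05 in PLCG2 to 0.0215 in NEMP2. The array reads a gene through probes over its exons and gives one summary value, so these data do not show where along a gene the signal was lost or kept.

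**Figure D3:**
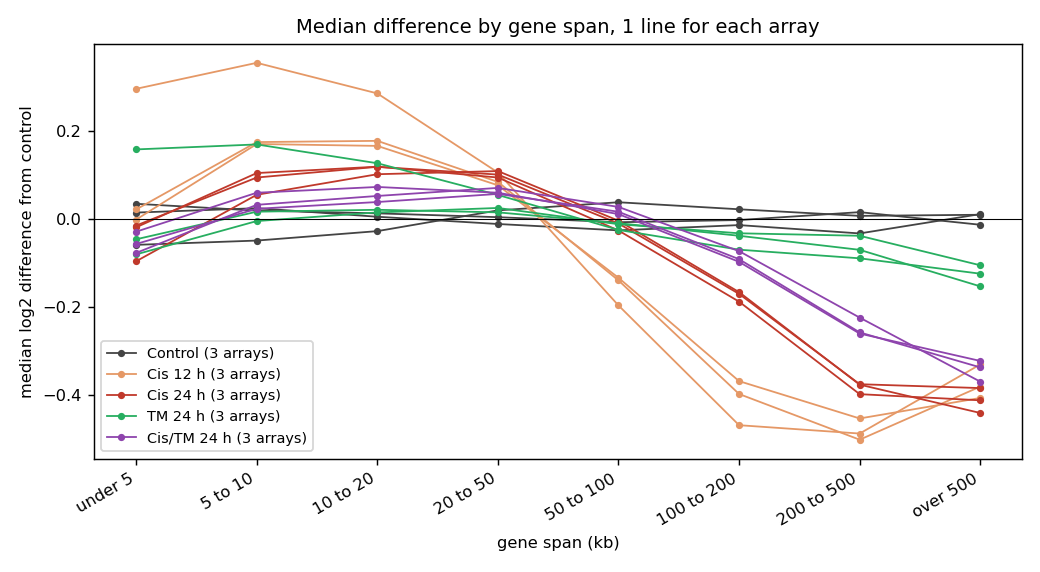
Median log2 difference from the mean of the control arrays in 8 classes of gene span in kb, 1 line for each array of Control, Cis 12 h, Cis 24 h, TM 24 h and Cis/TM 24 h (each control array is set against the other 2). The 3 Cis 24 h arrays run close together and leave 0 downwards above 100 kb, the Cis 12 h arrays turn below 0 at shorter spans, and Cis 12 h A and TM 24 h A stand apart at short spans.

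The arrays of a group behaved alike in this respect. The median difference from Control over the genes above 200 kb was −0.389, −0.405 and −0.378 on the arrays of Cis 24 h. It was −0.455, −0.447 and −0.478 on those of Cis 12 h and −0.259, −0.271 and −0.268 on those of Cis/TM 24 h. With TM alone for 24 h it was −0.0987, −0.082 and −0.0627, and each control array set against the other controls gave −0.027, 0.0075 and 0.0075. The comparisons of cisplatin with Control at 12 h and 24 h share the 3 control arrays, so they are not separate evidence.

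Chromosomes differ in how long their genes are, and the calls differed with them. On chromosome 19, where the median gene spanned 15.3 kb, 19% of 1308 genes were higher and 1.22% lower. Chromosome 17 (17.7 kb) had 17.3% higher and 2.62% lower, and chromosome 22 (22.9 kb) 15.1% and 0.473%. At the other end, chromosome 4 (48.2 kb) had 5.08% higher and 9.59% lower, chromosome 18 (53.9 kb) 5.68% and 8.33%, and chromosome 13 (50.6 kb) 3.79% and 6.94%. Chromosomes also differed among genes under 20 kb alone, of which 21.9% were higher on chromosomes 19 and 17, against 4.41% of 68 genes on chromosome 13 and 6.04% of 182 on chromosome 4. Among transcripts that do not encode protein, 21 of 632 long noncoding RNA genes were higher (3.32%) and 32 lower (5.06%). Of 173 miRNA genes 2 were higher (1.16%) and 17 lower (9.83%). Of 175 snoRNA genes 23 were higher (13.1%) and 9 lower (5.14%). The shares over all genes were 11.5% and 4.9%.

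Genes in each functional class are described next, by lists of genes with known roles. A list is set beside the shares over all genes of 11.5% higher and 4.9% lower. The share called higher depended on level, with 0.13%, 3.61%, 23.1% and 19.1% in the 4 classes from lowest to highest. In the 4 classes of level made from protein-coding genes alone, it was 35.2% among genes under 20 kb of the third class and 35.3% in the highest. A share above 11.5% therefore need not set a list of short, well-expressed genes apart from other such genes. No test of a list against other genes was made. Under other scalings 13 to 25 of the 190 genes named in this report lost their call, and medians of the lists of mitosis, ID and TGF-beta, histone, heat shock, integrated stress response, drug transporter and immediate early genes changed sign or lay at 0. The genes that were called as deposited but under none of the 3 other scalings were BCL2L11, BMP4, CCT7, GBP2, ITGA5, LAMB2, MGAT1, MGAT4B, NCAPG2, PLXNB2, POLQ and SPARC. Those called with arrays centred on their medians but neither after quantile normalization nor with the trend with level removed were ATOX1, CDH2, CEP19, DNAJB1, ERCC3, GADD45A, GADD45B, GPX2, KRT18, NCAPH, PARP1 and POLH, and GTF2H4 and B4GALT3 lost their call in 1 scaling each.

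Counts of list members changed with the scaling as well. With the trend with level removed, the genes called higher went from 20 to 12 of 60 oxidative phosphorylation genes, from 10 to 5 of 35 glycolysis and hypoxia genes, from 9 to 4 of 24 base excision and mismatch repair genes and from 19 to 12 of 48 lysosomal genes. They went from 11 to 6 of 39 ribosome biogenesis genes, from 8 to 5 of 19 caspase and apoptosome genes, from 7 to 4 of 31 drug transporter genes, from 6 to 3 of 47 histone genes, from 5 to 3 each of 22 epithelial-mesenchymal transition and 25 cholesterol genes, from 4 to 2 of 21 cohesin and condensin genes and from 3 to 1 of 31 chaperones. Integrated stress response genes went from 5 higher and 4 lower to 2 and 6 of 31, and mitosis genes called lower from 2 to 4 of 58.

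**Figure D4:**
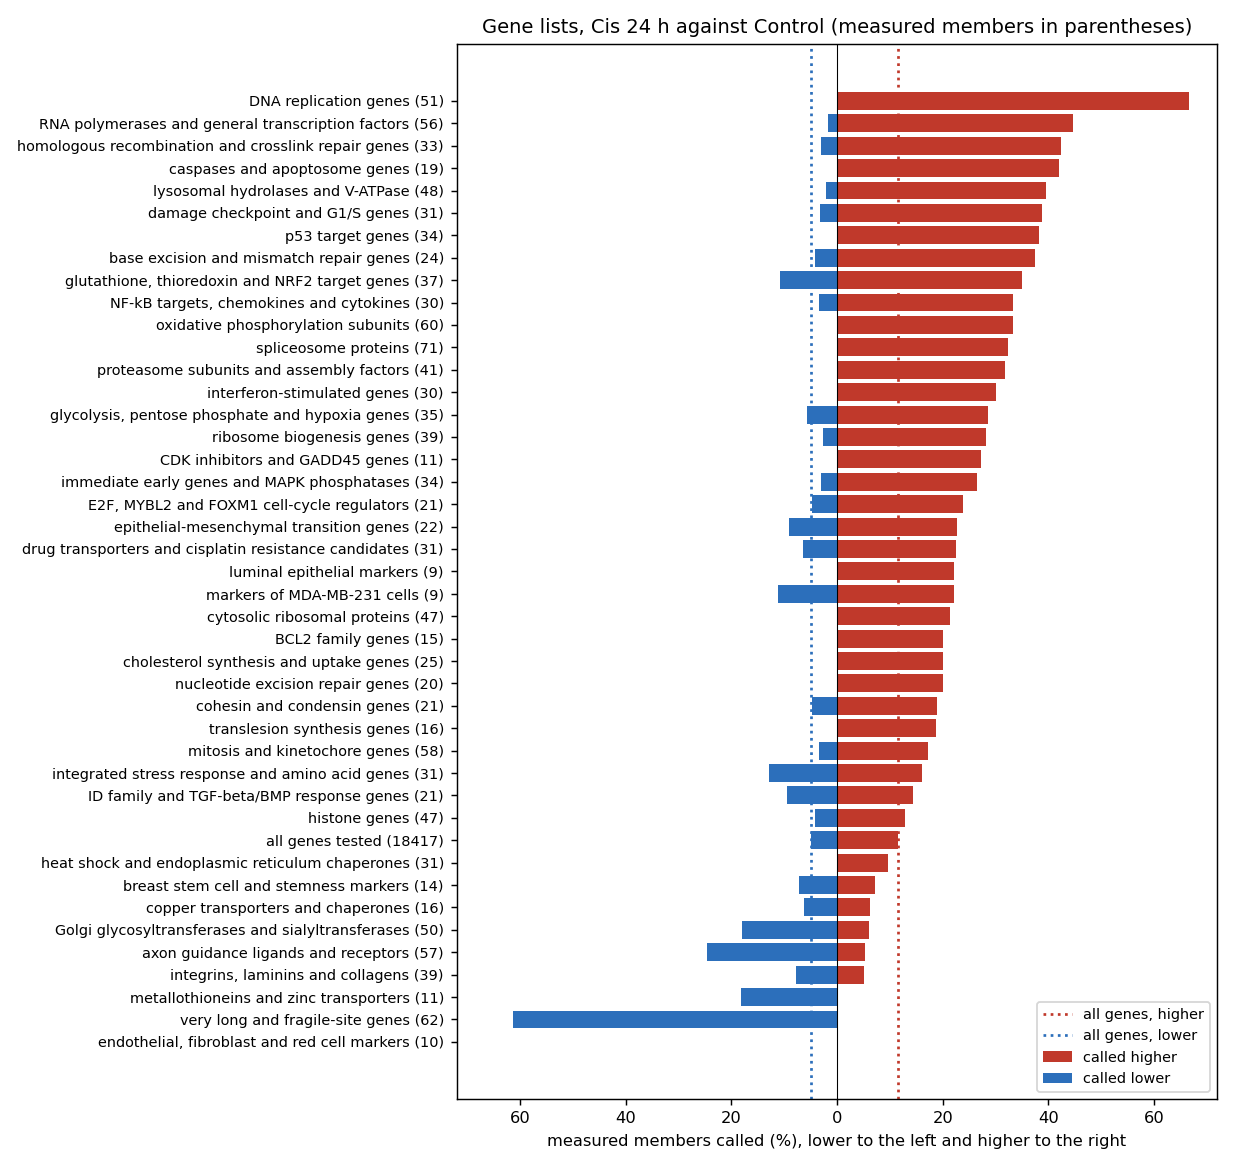
Percent of the measured members of each gene list that were called higher (red, to the right) or lower (blue, to the left) in Cis 24 h against Control, for lists of at least 9 measured members, with their number in parentheses. Dotted lines and the bar of all genes tested mark 11.5% higher and 4.9% lower. DNA replication genes reach 66.7% higher, and very long and fragile-site genes 61.3% lower.

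Most genes of the DNA replication machinery rose. Of 51 measured members 34 (66.7%) were called higher and none lower, and the list's median log2 fold change was 0.68. In 42 members all treated arrays lay above all control arrays. They did so in 24.9% of all genes and in 2107 of the 4604 genes of the highest class of level. With arrays centred on their medians 26 were called, after quantile normalization 24 and with the trend with level removed 23. RNASEH2A, a subunit of the RNase that removes RNA primers, rose by 1.47 ± 0.12 (adjusted p = 4.62e-08). MCM7, a subunit of the replicative helicase, read 8.90, 9.17 and 8.47 in Control and 10.34, 10.21 and 10.14 in Cis 24 h. RFC2, a subunit of the clamp loader, read 8.38, 8.64 and 8.25 and then 9.87, 9.83 and 9.64. In each of these genes the lowest treated array lay above the highest control array by about 1 unit. GINS3 (1.31), ORC6 (1.02) and POLA2 (1.15), which act in the helicase, at origins and in primer synthesis, rose as well. POLA2 had the closest arrays, with 6.69, 6.72 and 6.69 in Control and 7.92, 7.86 and 7.77 in Cis 24 h.

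Many of these genes are targets of the E2F factors, which read the state of the retinoblastoma protein at the G1/S boundary. Their upstream sequences were therefore searched for an E2F-type motif, spelled as TTTCCCGC, TTTGGCGC, TTTCGCGC or TTTGCCGC on either strand. The sequences of 4 replication genes called higher that hold it are shown, each with the 250 bases before the gene's start, 5′ to 3′ on the gene's strand (RefSeq, GRCh38.p14), with the motif in capitals. POLA2 lies at chr11:65261712-65261961 on the plus strand, MCM7 at chr7:100101398-100101647 on the minus strand, MCM3 at chr6:52284743-52284992 on the minus strand and RFC3 at chr13:33817899-33818148 on the plus strand.
POLA2: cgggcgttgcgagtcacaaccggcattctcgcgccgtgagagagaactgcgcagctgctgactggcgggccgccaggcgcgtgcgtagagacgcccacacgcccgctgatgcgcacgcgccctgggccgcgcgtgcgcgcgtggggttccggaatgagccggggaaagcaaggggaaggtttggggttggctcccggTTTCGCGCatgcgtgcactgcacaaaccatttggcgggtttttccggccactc
MCM7: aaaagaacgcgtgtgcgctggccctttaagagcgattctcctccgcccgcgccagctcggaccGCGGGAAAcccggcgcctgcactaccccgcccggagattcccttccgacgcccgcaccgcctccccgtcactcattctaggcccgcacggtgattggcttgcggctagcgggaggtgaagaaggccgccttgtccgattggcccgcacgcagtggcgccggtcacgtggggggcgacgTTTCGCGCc
MCM3: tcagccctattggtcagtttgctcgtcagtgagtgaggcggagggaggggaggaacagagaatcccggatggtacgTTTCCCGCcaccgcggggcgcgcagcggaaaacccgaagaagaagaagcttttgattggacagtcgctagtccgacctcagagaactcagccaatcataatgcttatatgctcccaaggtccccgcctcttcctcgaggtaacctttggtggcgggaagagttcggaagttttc
RFC3: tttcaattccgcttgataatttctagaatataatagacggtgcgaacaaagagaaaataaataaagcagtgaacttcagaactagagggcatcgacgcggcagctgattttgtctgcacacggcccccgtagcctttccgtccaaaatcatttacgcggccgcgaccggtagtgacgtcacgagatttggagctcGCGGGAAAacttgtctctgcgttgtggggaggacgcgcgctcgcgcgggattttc

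The motif began 53 bases before the start in POLA2, 55 in RFC3 and 174 in MCM3, and MCM7 held it at 187 and at 9 bases. These genes had been picked because they hold it. Over the whole list it was present in 9 of 29 replication genes called higher (31.0%) and in 5 of 15 that were not called (33.3%), which are shares of like size in few genes. It was present in 3.75% of the 14237 upstream sequences that matched a tested gene. MCM3, another helicase subunit, rose by 0.81 ± 0.10, and RFC3, a clamp loader subunit that spans 159.2 kb, by 0.71 ± 0.09, from 9.60, 9.70 and 9.76 to 10.38, 10.40 and 10.39.

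Over all genes called higher, 6.31% held the E2F-type motif, and 3.5% of those called lower did. The GC box GGGCGG was present before 70.9% of the genes called higher, 57.5% of all genes and 51.9% of those called lower, and the ETS-type CCGGAAG before 20.6%, 12.1% and 7.41%. The CCAAT box was present before 38.5%, 34.4% and 29.8%, and TATAAA before 5.23%, 8.59% and 10.5%. The CRE motif TGACGTCA was present before 3.64%, 2.37% and 2.1%, and the AP-1 motif TGACTCA before 2.62%, 3.08% and 2.94%. Median G+C content of the window was 64.4% for the genes called higher, 62.8% for all genes and 60.4% for those called lower, so GC-rich motifs and base composition moved together. A match is a description of letters and not a binding site.

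Among the regulators of the same cell cycle step, 5 of 21 rose and 1 fell. MYBL2, a transcription factor of S phase and mitosis, read 6.39, 6.91 and 6.62 in Control and 8.45, 8.40 and 8.19 in Cis 24 h, a rise of 1.71 ± 0.12 (adjusted p = 9.81e-09). E2F1 rose by 1.43 ± 0.15 and E2F8, a repressor of the family, by 1.09 ± 0.10. These genes also had higher means with TM alone for 24 h than in Control, a comparison that was not tested. Means in Control, TM 24 h and Cis 24 h were 6.64, 8.13 and 8.34 in MYBL2. They were 6.07, 6.91 and 7.50 in E2F1 and 8.74, 9.13 and 9.83 in E2F8. E2F5, a repressor of 37.4 kb that partners with retinoblastoma-like proteins, fell by 0.87 ± 0.17 and was the member of the list that fell.

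Damage checkpoint and G1/S genes had 12 of 31 members higher and 1 lower (median 0.46). CCNE1, cyclin E1, read 6.34, 6.82 and 6.71 in Control and 8.04, 8.03 and 7.85 in Cis 24 h. CDK2, its kinase partner, read 8.42, 8.45 and 8.54 and then 9.63, 9.63 and 9.53, and CDC25A, the phosphatase that activates it, rose by 1.06 ± 0.12. The cyclin, its kinase and the activating phosphatase thus were all higher, with no overlap between the groups. With TM alone for 24 h the means were 6.95 for CCNE1, 9.04 for CDK2 and 8.86 for CDC25A. Beside these stood 6.62, 8.47 and 7.55 in Control and 7.97, 9.60 and 8.61 in Cis 24 h. CCND3, cyclin D3, rose by 1.33 ± 0.12. CDK6, which partners with D cyclins and spans 231.7 kb, was the 1 member that fell (−0.80 ± 0.15). It was named after its values were seen, as were the other single members that went against their list in the following paragraphs.

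Repair genes were grouped by pathway. Of 33 homologous recombination and crosslink repair genes, 14 were higher and 1 lower, with a median of 0.49. FANCG, of the Fanconi anaemia core complex that marks crosslinks, rose by 1.38 ± 0.15 and EXO1, an exonuclease that resects breaks, by 0.96 ± 0.09. DCLRE1B (Apollo), a nuclease linked to crosslink repair, read 7.97, 8.25 and 8.45 in Control and 9.39, 9.35 and 9.31 in Cis 24 h. RAD54L, a DNA translocase of recombination repair, rose by 1.42 ± 0.17. BRCA1, which directs homologous recombination and was named after its values were seen, read 7.73, 8.23 and 8.22 and then 9.19, 9.01 and 9.04. With TM alone for 24 h the means were 7.63 for FANCG, 10.66 for EXO1, 8.99 for DCLRE1B and 6.68 for RAD54L. Beside these stood 6.92, 9.83, 8.22 and 5.79 in Control and 8.30, 10.80, 9.35 and 7.21 in Cis 24 h. TM alone was not tested against Control. In Cis/TM 24 h against TM 24 h, 2 of the 33 were called higher, among them BRCA1 (0.75 ± 0.15), and 1 lower.

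In nucleotide excision repair, which cuts out lesions that lie on one strand, 4 of 20 members rose and none fell. DDB2, a damage sensor and p53 target, rose by 1.07 ± 0.13, XAB2, a partner of the XPA protein in transcription-coupled repair, by 1.19 ± 0.17, and the TFIIH subunits ERCC3 and GTF2H4 by 0.79 and 0.67. Of 24 base excision and mismatch repair genes 9 rose and 1 fell. POLB, the gap-filling polymerase, rose by 1.09 ± 0.17 and PARP1 by 0.69 ± 0.10. MSH3, a mismatch recognition protein that spans 222.2 kb, fell by 0.75 ± 0.17. Of 16 translesion synthesis genes 3 rose and none fell. MAD2L2, a subunit of polymerase zeta, rose by 1.17 ± 0.11, POLH, the polymerase that bypasses cisplatin adducts, by 0.71 ± 0.12 and POLQ, a polymerase of end joining, by 0.59 ± 0.20. After quantile normalization, and also with the trend with level removed, MAD2L2 was the only one of these still called, and REV3L, the catalytic subunit of polymerase zeta, was called lower (−0.64 and −0.61), which it was not in the values as deposited. In Cis/TM 24 h against TM 24 h, none of the 20 nucleotide excision repair genes was called. Higher there were 1 of the 24 base excision and mismatch repair genes and 3 of the 16 translesion synthesis genes, and none was lower. The share of all genes called higher there was 3.53%.

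Of the genes known as p53 targets, 13 of 34 rose and none fell (median 0.39). Under quantile normalization 5 were called. CDKN1A, the CDK inhibitor p21, read 5.86, 6.11 and 5.45 in Control and 7.53, 7.51 and 7.47 in Cis 24 h. PMAIP1 (NOXA), a BH3-only death factor, read 7.81, 7.47 and 7.93 and then 9.16, 9.06 and 9.06. TP53INP1, which promotes p53 phosphorylation, read 5.02, 4.05 and 4.30 and then 5.97, 5.96 and 5.59. In these genes the treated arrays lay close together above scattered controls. GADD45A rose by 0.70 ± 0.10. MDM2, the ubiquitin ligase of p53, had a log2 fold change of 0.18 (adjusted p = 0.289), BBC3 (PUMA) of 0.13 (adjusted p = 0.577) and BAX of 0.45 (adjusted p = 0.00106, below the fold threshold), so these 3 defining targets were not called. Of 11 CDK inhibitor and GADD45 genes 3 rose, and GADD45B, which is induced by NF-kB and TGF-beta, rose by 0.75 ± 0.11. After quantile normalization, and with the trend with level removed, CDKN1A was the 1 member of these 11 that was called, and GADD45A and GADD45B were not.

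Of 58 mitosis and kinetochore genes 10 rose and 2 fell, with a median of 0.09. AURKB, the kinase of the chromosomal passenger complex, rose by 1.37 ± 0.11 and ZWINT, a kinetochore protein, by 1.34 ± 0.13. Their means in TM 24 h were 8.52 and 8.25, beside 7.59 and 7.52 in Control and 8.96 and 8.86 in Cis 24 h. CENPE, a kinetochore motor of 92.5 kb, read 9.33, 9.10 and 9.49 in Control and 8.66, 8.64 and 8.77 in Cis 24 h. ANAPC10, a subunit of the anaphase-promoting complex that spans 104.0 kb, fell by 0.71 ± 0.17. Of 21 cohesin and condensin genes 4 rose and 1 fell. CDCA5 and ESCO2 (1.0 ± 0.13), which both establish cohesion in S phase, and the condensin subunits NCAPH (0.69) and NCAPG2 (0.60) rose. STAG1, a cohesin subunit of 416.1 kb, read 9.37, 9.02 and 9.44 in Control and 8.08, 8.24 and 7.97 in Cis 24 h.

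Among 15 BCL2 family genes, 3 rose and none fell. These were BCL2A1, which protects cells, and the BH3-only factors PMAIP1 and BCL2L11 (BIM, 0.65 ± 0.15), which promote death, so members of both kinds were higher. Of 19 caspase and apoptosome genes 8 rose and none fell (median 0.41). CASP2, an initiator caspase activated by DNA damage, read 7.43, 7.37 and 7.08 in Control and 8.82, 8.44 and 8.36 in Cis 24 h. CASP9, the initiator of the apoptosome, rose by 1.10 ± 0.15. These are RNA levels, and caspases act after cleavage of their protein.

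Of 30 NF-kB targets, chemokines and cytokines, 10 were higher and 1 lower. Among the 8 chemokines of the list 1 rose and 1 fell (median −0.11), and among its 8 cytokines 2 rose (median 0.01). Besides CXCL8, NFKBIA, the inhibitor that NF-kB induces against itself, read 8.28, 8.17 and 8.39 in Control and 9.69, 9.52 and 9.44 in Cis 24 h. NFKB2 rose by 1.59 ± 0.15 and IL11, a cytokine of the interleukin-6 family, by 1.30 ± 0.18. CCL2, a chemokine for monocytes that spans 1.9 kb, went the other way, from 10.06, 9.99 and 10.05 to 9.24, 9.08 and 9.16 (−0.87 ± 0.09, adjusted p = 6.2e-07). Of 30 interferon-stimulated genes 9 rose and none fell, among them IFI35 (1.56 ± 0.15), IFIT2 (1.41 ± 0.14) and the transcription factor IRF1 (1.26 ± 0.19).

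Of 34 immediate early genes and MAPK phosphatases 9 rose and 1 fell. EGR1, a zinc finger factor, read 9.56, 9.61 and 9.62 in Control and 10.88, 10.89 and 10.67 in Cis 24 h. FOS rose by 1.33 ± 0.21, NR4A2, an orphan nuclear receptor, by 1.91 ± 0.19 and DUSP1, a phosphatase of stress kinases, by 1.45 ± 0.13. SPRY1, an inhibitor of receptor tyrosine kinase signalling that spans 7.0 kb, fell by 0.89 ± 0.18. Of 21 ID and TGF-beta or BMP response genes 3 rose and 2 fell. ID2, the decoy receptor BAMBI (1.19 ± 0.11) and BMP4 (0.64 ± 0.16) rose. ID1 and ID3 had log2 fold changes of 0.04 and 0.22 that were not called, so the ID genes did not move as a family. LTBP1, which holds latent TGF-beta in the matrix and spans 452.6 kb, fell by 2.16 ± 0.14, and TGFB2, the ligand, of 99.3 kb, went from 10.58, 10.58 and 10.60 to 9.02, 8.83 and 9.05.

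Of 22 epithelial-mesenchymal transition genes 5 rose and 2 fell. SNAI1, a repressor of epithelial genes, read 4.65, 4.42 and 3.77 in Control and 5.53, 5.30 and 5.31 in Cis 24 h. The epithelial keratins KRT8 (1.26 ± 0.17), KRT18 (0.69 ± 0.12) and KRT19 (0.85 ± 0.16) and the matrix protein SPARC (0.66 ± 0.13) rose too. ZEB1, another repressor of epithelial genes, and CDH2, N-cadherin, which span 211.4 kb and 244.3 kb, fell by 0.69 and 0.65. Epithelial and mesenchymal members therefore were both found among the rises, and 2 mesenchymal ones among the falls.

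Of 56 genes for RNA polymerases and general transcription factors, 25 rose and 1 fell. POLR2A, the catalytic subunit of RNA polymerase II, read 8.52, 8.71 and 8.40 in Control and 10.29, 10.25 and 10.15 in Cis 24 h, and HEXIM1, an inhibitor of the elongation factor P-TEFb, rose by 0.87 ± 0.10. POLR3B, a subunit of RNA polymerase III that spans 152.5 kb, fell by 0.64 ± 0.10. With the trend with level removed 12 members of this list were called higher and 4 lower. Of 71 spliceosome proteins 23 rose and none fell, among them SNRNP25 (1.22 ± 0.12), of the minor spliceosome, and U2AF1 (1.04 ± 0.12), which recognises the 3′ splice site, and 12 were called with the trend removed.

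Of 41 proteasome subunits and assembly factors 13 rose and none fell, and 13 were called under each of the scalings. A log2 fold change above 0 was found in 40 of them, and in 8660 of all 18417 genes. PSMB8, a subunit of the immunoproteasome, rose by 1.63 ± 0.15 and the ATPase subunit PSMC3 by 1.56 ± 0.13. Of 60 oxidative phosphorylation subunits 20 rose and none fell, with NDUFV1 of complex I at 1.32 ± 0.13 and CYC1 of complex III at 1.30 ± 0.16. Of 47 cytosolic ribosomal proteins 10 rose and none fell. RPS15 rose by 1.43 ± 0.14 and RPL18 by 1.22 ± 0.13, whereas the median of the list was 0.11. Of 39 ribosome biogenesis genes 11 rose and 1 fell. NOC2L, a nucleolar factor, rose by 1.24 ± 0.14, and UTP20, a component of the small subunit processome that spans 106.5 kb, fell by 0.71 ± 0.11.

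Lysosomal genes rose in 19 of 48 cases and fell in 1. ATP6V0B, a subunit of the proton pump, read 5.81, 6.18 and 6.20 in Control and 7.84, 7.63 and 7.62 in Cis 24 h, and ATP6V1F rose by 1.30 ± 0.15. MANBA, beta-mannosidase, which spans 130.2 kb, fell by 0.63 ± 0.17. Of 25 cholesterol genes 5 rose and none fell, with the sterol isomerase EBP at 1.39 ± 0.19. Of 35 glycolysis, pentose phosphate and hypoxia genes 10 rose and 2 fell. ALDOC, an aldolase, read 7.41, 7.63 and 7.54 and then 9.41, 9.29 and 9.06. VEGFA, the hypoxia-induced angiogenic factor, fell by 0.99 ± 0.12, and PDK1, a kinase that restrains pyruvate dehydrogenase, by 0.67 ± 0.13. Among the 10 members listed for hypoxia 2 rose and 1 fell, with a median of 0.27. Of 47 histone genes, many of them near-identical, 6 rose and 2 fell, among them H4C14 (1.20 ± 0.20).

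Redox genes moved in both directions. Of 37 glutathione, thioredoxin and NRF2 target genes 13 rose and 4 fell. GSTP1, a glutathione transferase, read 8.32, 8.55 and 8.12 in Control and 10.11, 10.01 and 9.82 in Cis 24 h, and GPX4, which reduces lipid peroxides, read 7.37, 7.52 and 7.06 and then 8.79, 8.81 and 8.69. The 4 that fell were ME1, malic enzyme, which spans 220.6 kb (−1.70 ± 0.14), SLC7A11, the cystine transporter (−0.96 ± 0.10), TXNRD1, thioredoxin reductase (−0.64 ± 0.08), and GPX2 (−0.61 ± 0.14). SLC7A11 read 11.17, 11.05 and 11.07 in Control and 10.22, 10.10 and 10.09 in Cis 24 h. NQO1 and GCLM, which define the NRF2 response together with these, had log2 fold changes of −0.18 and −0.15 that did not pass the test.

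Copper genes bear on the study's question, since TM binds copper and ATP7A is the copper pump that the study examined. ATP7A read 7.93, 7.97 and 7.84 in Control and 7.41, 7.34 and 7.33 in Cis 24 h. ATP7B read 4.27, 4.74 and 4.33 and then 3.55, 4.12 and 3.97. For both pumps the groups did not overlap and the log2 fold changes, −0.56 ± 0.16 (adjusted p = 0.00898) and −0.57 ± 0.17 (adjusted p = 0.0112), were just under the fold threshold, so neither was called. These calls turned on the scaling. ATP7A was called lower with arrays centred on their medians (−0.65), after quantile normalization (−0.78) and with the trend with level removed (−0.82), and ATP7B with arrays centred (−0.66) but not in the other two (−0.41 and −0.37). SLC31A1 (CTR1), the importer, had a log2 fold change of 0.07 (adjusted p = 0.502). ATOX1, the chaperone that hands copper to both pumps, rose by 0.71 ± 0.13, and was not called after quantile normalization or with the trend removed (0.53 in both). COMMD1, a regulator of the pumps that spans 247.7 kb, fell by 1.5 ± 0.12, from 8.23, 8.61 and 8.79 to 6.99, 7.12 and 7.01. ATOX1 and COMMD1 were the 2 called members among 16 copper genes in the values as deposited.

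Of 11 metallothioneins and zinc transporters none rose and 2 fell. MT1E, a metal-binding metallothionein of 1.3 kb, read 9.54, 9.59 and 9.85 in Control and 8.76, 8.91 and 8.80 in Cis 24 h, and SLC39A10, a zinc importer of 124.7 kb, fell by 0.92 ± 0.11. Of 31 drug transporters and candidates for cisplatin resistance 7 rose and 2 fell. UCP2, a mitochondrial carrier, rose by 1.69 ± 0.12. ABCC4, an efflux pump that spans 281.6 kb, fell by 1.07 ± 0.17, and G2E3, a ubiquitin ligase, by 0.60 ± 0.13.

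Of 31 integrated stress response and amino acid genes 5 rose and 4 fell. PPP1R15A (GADD34), the phosphatase subunit that ends the response, read 7.53, 7.84 and 7.72 in Control and 9.23, 9.10 and 8.98 in Cis 24 h. SLC7A11, the lipoprotein receptor VLDLR (−0.74 ± 0.13), the serine synthesis enzyme PSAT1 (−0.61 ± 0.11) and DDIT4 (−0.59 ± 0.13), an inhibitor of mTORC1, fell. Of 31 chaperones 3 rose and none fell, namely the small heat shock protein HSPB1 (1.38 ± 0.14), the HSP40 protein DNAJB1 (0.76 ± 0.12) and the chaperonin subunit CCT7 (0.60 ± 0.11). Of 14 stem cell markers 1 was called higher and 1 lower.

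In the values as deposited, 5 lists had more falls than rises, namely metallothioneins and zinc transporters, very long and fragile-site genes, axon guidance genes, Golgi glycosyltransferases, and integrins, laminins and collagens. Of 62 very long and fragile-site genes 38 (61.3%) fell and none rose, beside 33.7% of all genes over 200 kb that were called lower. The median of the list was −0.79, and 61 had a log2 fold change below 0, as had 1169 of the 1295 genes over 200 kb. Within the list 6 of 13 fragile-site genes, 10 of 17 adhesion genes and 22 of 32 signalling genes fell. Their medians were −0.50, −0.77 and −0.88. PTPRG, a receptor phosphatase, read 8.11, 8.04 and 7.81 in Control and 5.64, 5.65 and 5.64 in Cis 24 h. FHIT, which lies over the best-known fragile site, spans 1504.2 kb and was named after its values were seen, fell by 1.08 ± 0.20. Of 57 axon guidance genes 14 fell and 3 rose. SEMA3E, a semaphorin (−2.22 ± 0.18), ROBO1, a receptor of 1170.8 kb (−1.58 ± 0.11), and NRP1, a semaphorin co-receptor (−1.48 ± 0.16), fell. The members that rose, EFNB2 (0.86), PLXNB2 (0.59) and EFNA4 (0.68), spanned 45.9 kb, 32.7 kb and 5.8 kb, and PLXNB2 was not called under any of the other scalings.

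Of 50 Golgi glycosyltransferases and sialyltransferases 9 fell and 3 rose. MGAT5, which branches N-glycans, fell by 1.13 ± 0.15, and FUT8, which adds core fucose, went from 8.39, 8.48 and 8.48 to 7.50, 7.52 and 7.53. These genes span 334.7 kb and 387.3 kb, and ST6GALNAC3, the largest fall of all, also belongs here. B4GALT3 (0.78), MGAT1 (0.64) and MGAT4B (0.67) rose and span 6.7 kb, 30.8 kb and 9.3 kb. MGAT1 and MGAT4B were not called under any of the other scalings, and B4GALT3 was not with the trend with level removed, where none of the 50 was called higher and 12 were lower. Of 39 integrin, laminin and collagen genes 3 fell and 2 rose. The collagen receptor subunit ITGA2 fell by 1.04 ± 0.15, the laminin receptor subunit ITGA6 by 0.99 ± 0.11 and the collagen COL13A1 by 0.95 ± 0.15, and LAMB2, a laminin chain, and ITGA5, of the fibronectin receptor, rose by 0.66 and 0.65. Neither of the 2 rises was called under any of the other scalings.

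Spans were also compared over all lists other than that of very long genes, each gene counted once and members of that list left out. The 56 members that fell had a median span of 157.2 kb, 24 of them spanned over 200 kb and 11 under 50 kb, so that short genes such as MT1E, CCL2 and SPRY1 were among the falls too. The 332 members that rose had a median of 12.6 kb with none over 200 kb, and the 887 that were not called one of 24.3 kb.

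A second question is what changed between 12 h and 24 h of cisplatin. Between these groups, 1327 genes (7.21%) stood higher in Cis 24 h than in Cis 12 h and 629 (3.42%) stood lower. Array A of Cis 12 h stood apart, with a median of 5.94 over all genes where the other two had 5.88 and 5.87, and without it 929 were higher and 700 lower. The calls differed with span, in counts that include that array. Of 2581 genes of 50 to 100 kb 349 were higher and 20 lower, of 1781 genes of 100 to 200 kb 479 and 11, and of 1005 genes of 200 to 500 kb 228 and 19. Above 500 kb the counts were 15 and 19 of 290, and under 5 kb they were 7 and 156 of 2219. Among genes over 200 kb in the highest of the 4 classes of level of protein-coding genes the median difference was 0.71, and in the lowest −0.03.

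**Figure D5:**
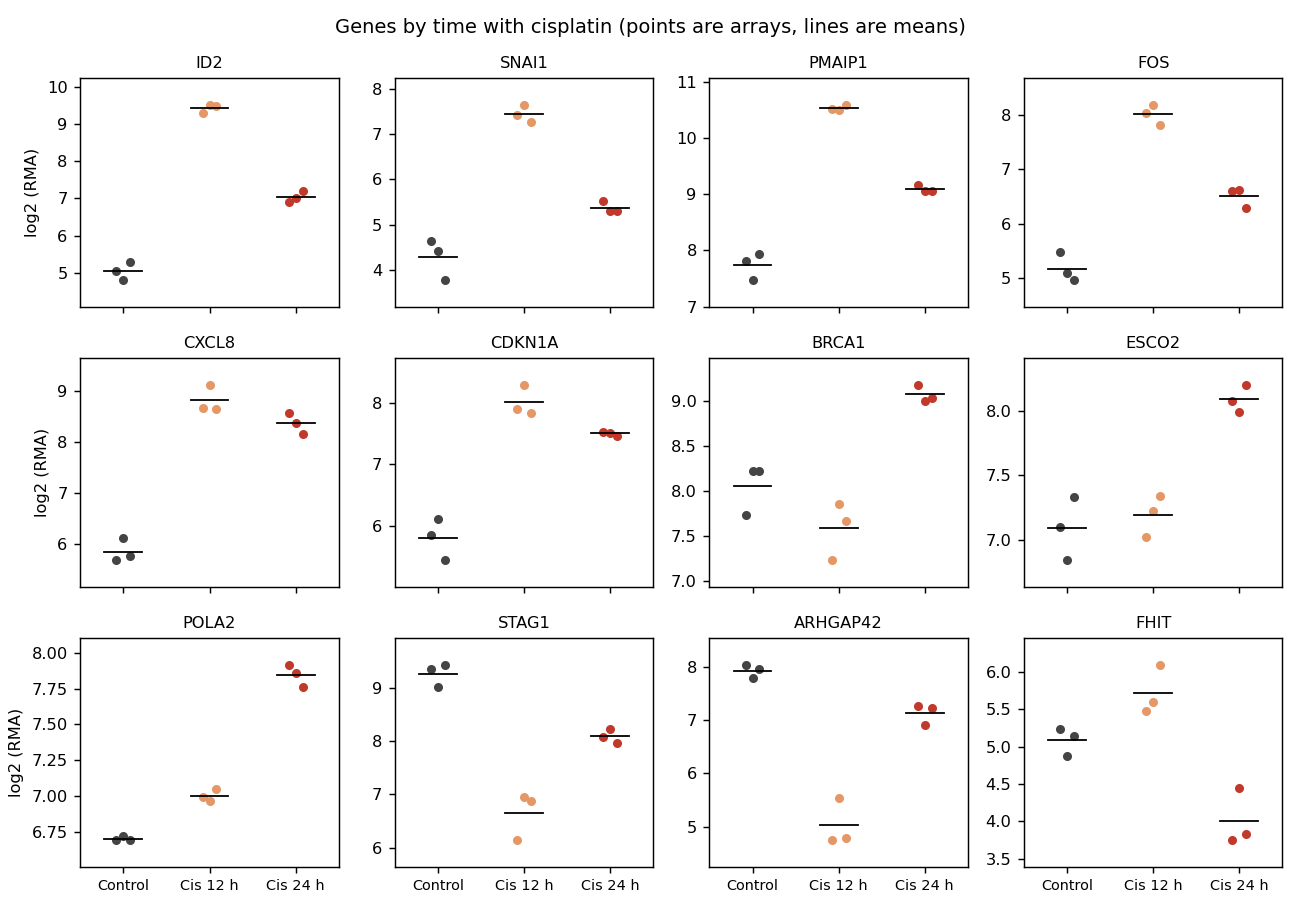
Log2 expression (RMA) of 12 genes on the 3 arrays each of Control (grey), Cis 12 h (orange) and Cis 24 h (red), with a line at the group mean and an axis of its own for each gene, which does not start at 0. ID2, SNAI1, PMAIP1 and FOS lie lower at 24 h than at 12 h, BRCA1, ESCO2, POLA2, STAG1 and ARHGAP42 lie higher, and FHIT lies lower at 24 h than in both other groups.

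ARHGAP42, a GTPase-activating protein of 306.7 kb, was higher at 24 h by 2.11 ± 0.17 (adjusted p = 1.38e-07), DOCK10, a guanine nucleotide exchange factor, by 1.88 ± 0.14, KLHL4 by 1.89 ± 0.15, ADD3, a protein of the membrane skeleton, by 1.87 ± 0.16 and BAZ2B, a bromodomain protein, by 1.80 ± 0.19. ADD3 read 8.78, 8.77 and 8.74 in Cis 24 h and 8.57, 8.85 and 8.80 in Control, so its arrays overlapped at 24 h. ARHGAP42 had differences from Control of −2.91 at 12 h and −0.80 at 24 h, KLHL4 of −3.11 and −1.22, and DOCK10 of −2.98 and −1.10. Other long genes were lower at 24 h than at 12 h or did not differ beyond the threshold. PTPRM, with −1.06 and −3.19, had a difference of −2.12 ± 0.13 between 24 h and 12 h. GPHN, the longest of the 15 largest falls, had a difference of 0.17 that was not called. STX8, of 325.4 kb, had −2.06 ± 0.21, TENM1 −1.84 ± 0.16, and FHIT, with 0.64 and −1.08 against Control, −1.72 ± 0.20.

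Lists of repair, replication and chromosome genes were compared between 24 h and 12 h as well, beside the 7.21% of all genes higher and 3.42% lower. Of 33 homologous recombination and crosslink repair genes 16 were higher and none lower, of 51 replication genes 16 and none, of 21 cohesin and condensin genes 16 and none, of 58 mitosis genes 23 and 2, and of 16 translesion synthesis genes 8 and none. Of 24 base excision and mismatch repair genes 4 were higher and none lower, and of 20 nucleotide excision repair genes 1 and 1. List counts between 24 h and 12 h include array A of Cis 12 h and were not repeated without it. BRCA1 read 7.23 on that array and 7.86 and 7.67 on B and C. BRCA1 was higher by 1.49 ± 0.15, with differences from Control of −0.48 at 12 h and 1.02 at 24 h. POLA2 was higher by 0.85 ± 0.10 and RFC3 by 0.88 ± 0.09, while MCM7 and RFC2 differed by 0.09 and 0.16 and were not called. CENPE (1.15 ± 0.14) and STAG1 (1.44 ± 0.16), both lower than Control at 24 h, were higher than at 12 h.

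Of 34 immediate early genes and MAPK phosphatases 8 were lower at 24 h than at 12 h and 3 higher, of 30 NF-kB targets, chemokines and cytokines 4 and 3, and of 30 interferon-stimulated genes 1 and 8. For single genes the differences were −2.40 ± 0.19 in TNFSF15, a TNF family cytokine, −2.40 ± 0.21 in ID2, −2.06 ± 0.17 in SNAI1, −1.84 ± 0.11 in GADD45B, −1.66 ± 0.11 in BAMBI, −1.52 ± 0.21 in FOS and −1.43 ± 0.11 in PMAIP1. CXCL8 (−0.45) and CDKN1A (−0.50) were not called in this comparison. EGR1, of the immediate early list, was higher by 0.69 ± 0.10. Of 11 metallothioneins and zinc transporters 6 were lower and none higher, with MT1E at −1.35 ± 0.13. ATP7A was higher at 24 h than at 12 h by 1.20 ± 0.16, and ATOX1 lower, at −0.79 ± 0.13.

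The effect of cisplatin can also be measured on arrays that the first comparison did not use, as Cis/TM 24 h against TM 24 h. In that background 650 genes (3.53%) were higher and 506 (2.75%) lower. Of the 903 genes that fell in Cis 24 h, 229 (25.4%, and 45.3% of the 506) were also called lower there, 21 were called higher, and 73.0% had a log2 fold change below 0 beside 56.1% of all genes. Of the 2115 genes that rose, 219 (10.4%, and 33.7% of the 650) were also called higher, 50 were called lower, and 55.5% had a log2 fold change above 0 beside 43.9% of all genes. The median log2 fold change of the genes that fell was −0.76 without TM and −0.23 with it, and of those that rose 0.81 and 0.04. Array A of TM 24 h stood apart, with a median of 5.91 where the other two had 5.77 and 5.79, and leaving out any 1 array gave 479 to 748 genes higher and 427 to 574 lower.

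Long genes were among those lower on these arrays as well. Of the 1295 genes over 200 kb 228 were called lower and 10 higher, and 185 of the 228 were among the 436 called without TM. In genes above 500 kb 76 of 290 were lower and none higher. DIAPH2 had log2 fold changes of −2.47 ± 0.16 with TM and −2.78 ± 0.16 without, SCFD2 of −2.41 and −2.74, and LPP of −2.12 and −2.49. After DIAPH2 and SCFD2, the largest falls with TM were those of GPC6, a glypican of 1191.5 kb (−2.38 ± 0.18, and −2.20 without TM), and NEGR1, an adhesion molecule of 886.6 kb (−2.14 ± 0.12, and −1.80 without TM). CXCL8 (1.63 ± 0.15), CTSV (1.71 ± 0.24), CA2 (1.70 ± 0.14), BCL2A1 (1.26 ± 0.20), NR4A2 (1.11 ± 0.19), TP53INP1 (1.13 ± 0.20) and CDKN1A (0.81 ± 0.14) rose in both backgrounds. PMAIP1 (−0.07), DDB2 (0.49) and GADD45A (0.35), which rose without TM, were not called with it. Of 34 p53 targets 8 were called higher with cisplatin in the presence of TM and none lower. Mean PMAIP1 was 7.74 in Control, 8.69 in TM 24 h and 9.09 in Cis 24 h.

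The test of the difference between the backgrounds (the effect of cisplatin with TM minus the effect without it) called 936 genes (5.08%) higher and 2104 (11.4%) lower. It shares the Cis 24 h and Control arrays with the first comparison, so genes that are high or low on those arrays by error alone would enter both. It was called in 67.6% of the genes that rose in Cis 24 h and in 43.3% of those that fell. With arrays centred on their medians the counts were 1799 and 1450, so the balance of directions depended on the scaling. Of the replication genes 2 of 51 were higher in Cis/TM 24 h against TM 24 h and the difference was called lower in 24. MCM7 had log2 fold changes of 1.39 without TM and −0.13 with it, a difference of −1.52 ± 0.19, and RFC2 of 1.35 and 0.02, a difference of −1.34 ± 0.15. The effect with TM is measured from TM 24 h, where both genes already had higher means than in Control, a comparison that was not tested. Mean MCM7 was 8.84 for Control, 9.84 for TM alone at 24 h, 9.71 for both drugs and 10.23 for cisplatin alone. For RFC2 these means were 8.42, 9.29, 9.31 and 9.78. For RNA polymerase genes the difference between the backgrounds was called lower in 31 of 56 and for spliceosome proteins in 29 of 71. For oxidative phosphorylation it was in 23 of 60 and for proteasome genes in 19 of 41. Over all genes it was called lower in 7, 162, 1035 and 900 genes of the 4 classes of level, from lowest to highest. The total was 1358 after quantile normalization and 1352 with the trend with level removed, and list counts of this difference were not made under those scalings. In 12 of 39 ribosome biogenesis genes expression was lower with cisplatin in the presence of TM, and in none was it higher.

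Some genes had opposite directions in the backgrounds. TCP11L2 read 7.68, 6.91 and 7.61 in Control and 5.86, 5.84 and 5.75 in Cis 24 h, a change of −1.58 ± 0.16, and rose by 1.51 ± 0.16 from TM 24 h to Cis/TM 24 h, a difference of 3.10 ± 0.23 (adjusted p = 5.52e-07). ANKFN1, with 470.9 kb an exception among long genes, fell by 1.47 ± 0.15 without TM and rose by 1.28 ± 0.15 with it. The complement gene C5 fell by 0.87 ± 0.20 and rose by 1.49 ± 0.20. CYP1B1, a cytochrome P450, had a log2 fold change of 0.14 without TM (adjusted p = 0.444) and rose by 2.19 ± 0.14 with it. CEP19, a centrosomal protein (0.82 and 1.84), and the interferon-induced GTPase GBP2 (0.73 and 1.83) rose in both backgrounds and by more with TM. CDC25A rose without TM and fell by 0.59 ± 0.12 with it. For ATP7A the log2 fold changes were −0.56 and 0.45, neither of them called in the values as deposited, and the difference of 1.01 ± 0.22 was called (adjusted p = 0.00286).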

How the data were processed

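RNA of MDA-MB-231 cells was read on 20 Affymetrix Human Gene 1.0 ST arrays. The authors corrected, normalized and summarized the probes with RMA, and the deposited log2 values were used as given, with no measure of background for each gene. Of 33297 rows, 19460 carried 1 symbol and 18417 genes were kept. Comparisons were made in limma 3.58.1 (R 4.3.3), in 1 model of 7 groups on 20 arrays with 13 residual degrees of freedom, and called at an adjusted p (Benjamini-Hochberg) under 0.05 with a change over 1.5-fold. Errors are standard errors. The procedure was tested on simulated data. Alternatives were the scaling, the threshold, the filter, the choice of row and each array left out.

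The comparison, the genes and the 43 lists were chosen with earlier results of these data known. Named by rule were the 15 largest rises and falls that were called and whose groups do not overlap, up to 6 called members of a list by p, 4 copper genes, 5 genes in each direction of other comparisons and 4 promoters. Of 190 genes named 158 met the rule, and the others were chosen after their values were seen or because they define a list.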

Additional observations from a re-analysis of the deposited data

Results flagged for a closer look

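The effect of cisplatin at 24 h was tested for a difference between cells with and without TM. The difference was positive in 936 genes and negative in 2104. All values below are log2 differences of the effect with TM minus the effect without it, each with an adjusted p under 0.05 and over 1.5-fold. They share the Cis 24 h and Control arrays with the choice of the largest rises and falls, for which a difference toward 0 is favoured by that choice.

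Among the 15 largest rises the difference was −1.75 in RFPL4A, −0.88 in CXCL8, −0.68 in CA2, −2.46 in CDCA5, −0.87 in BCL2A1, −1.58 in CRABP2, −2.0 in DMAC2 and −1.17 in IFI30. It was −1.53 in GLUL, −1.93 in HSD17B6, −2.28 in TXN2, −0.88 in ID2, −1.67 in HROB and −1.89 in ESAM. CTSV was the rise in which it was not called. CDCA5, CRABP2, DMAC2, GLUL, HSD17B6, TXN2, HROB and ESAM were not called in Cis/TM 24 h against TM 24 h. Each of these genes had a higher mean with TM alone for 24 h than in Control, a comparison that was not tested. In CDCA5 these means were 7.33 and 5.71, and in CRABP2 5.42 and 4.75.

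Among the 15 largest falls the difference was 1.93 in ST6GALNAC3, 1.08 in PTPRM, 1.55 in NLGN1, 1.09 in TENM1, 1.85 in TBC1D5, 0.85 in GPHN, 2.0 in PLCB1 and 0.89 in STX8. It was 0.81 in PRKCA, 1.22 in LRBA and 1.05 in DPYD, and it was not called in DIAPH2, SCFD2, LPP and RBMS3. All 15 were called lower with TM as well.

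Of the other genes given in both backgrounds, the cell cycle genes MCM7, RFC2, CDC25A and CDKN1A had −1.52, −1.34, −1.64 and −0.89. NR4A2 had −0.80 and PMAIP1 −1.43. TCP11L2, ANKFN1 and C5, which moved in opposite directions, had 3.10, 2.75 and 2.36. CYP1B1 had 2.04, CEP19 1.03, GBP2 1.11 and ATP7A 1.01.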

How the results depend on the processing

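In Cis 24 h against Control, a fold change over 2 gave 524 genes higher and 236 lower, quantile normalization 1306 higher, removal of the trend with level 1226 higher, and centring on medians 1359 lower. A fold change over 2 gave 299 and 128 for 24 h against 12 h, 129 and 117 for Cis/TM 24 h against TM 24 h, and 216 and 702 for the difference between the backgrounds. That difference was called higher in 1799 genes after centring on medians, and lower in 1358 after quantile normalization and 1352 without the trend. Leaving out each array gave 1875 to 2293 genes higher and 883 to 1078 lower against Control, 929 to 1593 and 548 to 708 for 24 h against 12 h, 479 to 748 and 427 to 574 for Cis/TM 24 h against TM 24 h, and 753 to 1117 and 1813 to 2269 for the difference. In Cis 24 h against Control, no named gene called there changed sign under its settings, and genes of the other comparisons were not tried one by one. With the replicate block, 2116 genes were higher and 902 lower against Control. No source says whether the replicate letters pair the arrays. Deviations of the arrays correlated between Cis 24 h and Control with r of −0.089, 0.023 and 0.042 for A, B and C. These values show no shared deviation but cannot settle the pairing of cultures. Counts of long genes under each setting were added after the data were seen. The number of arrays limits the precision.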
